A study of Mus musculus with 9 samples.

Results

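The genes described here are 10 enzymes of threonine, glycine and one-carbon metabolism: Tdh, Gcat, Gldc, Shmt1, Shmt2, Mthfd2, Mthfd1l, Bhmt, Bhmt2 and Mat2a. They were listed by name for their place in the pathway, with earlier results of these data known, and all 10 were found by their Ensembl identifiers among the 38293 genes of the count table.

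Threonine dehydrogenase and glycine C-acetyltransferase (Tdh and Gcat) split threonine in the mitochondrion into acetyl-CoA and glycine, and the glycine cleavage system and the serine hydroxymethyltransferases pass carbon units from glycine and serine to folate. Folate-bound carbon feeds the synthesis of thymidylate and purines and the recycling of homocysteine to methionine, which Mat2a turns into S-adenosylmethionine (SAM), the methyl donor of DNA and histone methyltransferases. Mouse embryonic stem cells are known to depend on threonine, and Tdh is known as a gene of these cells that is shut down on differentiation.

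Poly-A RNA was sequenced as single-end reads of 50 bases from E14, a mouse embryonic stem cell line, in 3 culture states with 3 libraries each, as the expression side of a study of histone lactylation. The mESC-2i cells grew in serum-free N2B27 medium with leukaemia inhibitory factor (LIF), the MEK inhibitor PD0325901 and the GSK3 inhibitor CHIR99021. The sample titles of this group alone also carry the tag LT, which is not interpreted here. The mESC-ser cells grew on gelatin in DMEM with foetal bovine serum, glutamine, non-essential amino acids and LIF, without the 2 inhibitors. The EpiLC (epiblast-like cells) were derived from mESC-2i by plating on fibronectin in N2B27 with activin A, FGF2 and knockout serum replacement. All 9 libraries come from this 1 line, so a replicate stands for a culture or a library, not for another embryo, and the effects of the cell state and of the amino acids in the medium cannot be told apart. Nothing in the labels says whether the libraries of a group came from separate cultures, so p-values measure the spread between these libraries, which may be technical.

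Libraries held 7187576 to 16829549 counts. The 3 markers Pou5f1, Sox2 and Nanog were present in every library, and the summed level of 5 naive markers was 2170 to 2330 counts relative to library size (CPM) in mESC-2i, 1230 to 1320 CPM for mESC-ser and 29.5 to 36.2 CPM in EpiLC, while 4 formative markers summed to 71.8 to 80.3, 609 to 711 and 1620 to 1710 CPM. Fibroblast markers (5 of 5 detected) summed to 40.8 to 77.3 CPM over all libraries, primitive endoderm markers (5 of 5) to 1.38 to 15.7 CPM and trophectoderm markers (4 of 4 in both mESC groups, 3 of 4 in EpiLC, with Elf5 at 0) to 9.98 to 34.8 CPM. Some of these markers were at or under 3 counts in every library of a group. They were 1 of 5 fibroblast markers in mESC-ser and 2 of 5 primitive endoderm markers in EpiLC. Of the 4 trophectoderm markers, 1 was so low in each mESC group and 2, with Elf5, in EpiLC. Whether such cells were present, and their part in the results, was not tested. Log2 fold changes followed gene length across protein-coding genes (Spearman 0.280 for serum against 2i, -0.300 for EpiLC against 2i and -0.498 for EpiLC against serum), and values corrected for length and GC content are given where they change a call of one of the 10 enzymes.

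**Figure D1:**
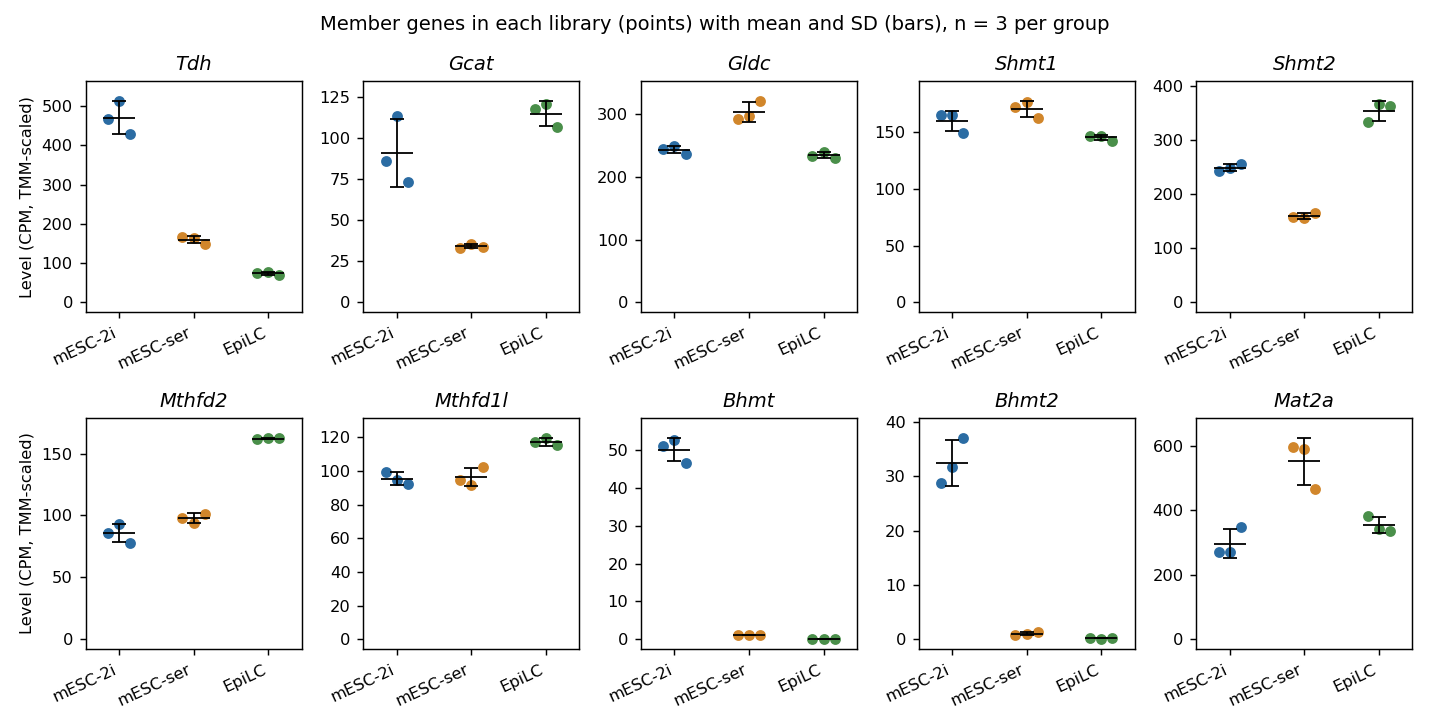
Level of each of the 10 genes in CPM scaled by TMM (y axis, from 0) in the 9 libraries by culture state; points are libraries and black bars the mean and SD (n = 3). Tdh stepped down from mESC-2i (428 to 512 CPM) over mESC-ser (150 to 168 CPM) to EpiLC (69.0 to 76.7 CPM), and Bhmt and Bhmt2 were near 0 outside mESC-2i.

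Serum and 2i culture were compared first, the pair that the study also contrasted. A gene was called where its absolute log2 fold change exceeded 0.5 and its edgeR p, adjusted by Benjamini and Hochberg over all tested genes, was below 0.05. In mESC-ser, 6 of the 10 enzymes were called, against 56.2% of all 15728 tested genes, so the share of the enzymes was near the background. Tdh, Gcat, Shmt2, Bhmt and Bhmt2 were lower (5 of 10, background 30.3%) and Mat2a was higher (1 of 10, background 25.9%). Gldc, Shmt1, Mthfd2 and Mthfd1l were not called. Their median log2 fold change was -0.37, beside -0.04 over all tested genes.

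The other comparisons set EpiLC against each mESC state. Against mESC-2i, 4 of 10 enzymes were called (background 69.8%). Tdh, Bhmt and Bhmt2 were lower (background 37.8%) and Mthfd2 was higher (background 32.0%). Against mESC-ser, 9 of the 10 enzymes had enough counts to be tested and 6 were called (background 73.3%). Gcat, Shmt2 and Mthfd2 were higher (background 35.5%), and Tdh, Bhmt and Mat2a were lower (background 37.8%). The median log2 fold change of the tested enzymes was 0.08 against mESC-2i, where all tested genes had -0.11, and -0.14 against mESC-ser, where all had -0.07. Neither median moves when Bhmt, absent from EpiLC, is set at its bound. The groups did not overlap in CPM for 8, 7 and 9 of the tested enzymes in the 3 comparisons, beside 70.7%, 81.8% and 85.7% of all tested genes. Each pair of comparisons shares the libraries of 1 group, so the values are given side by side and not correlated.

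**Figure D2:**
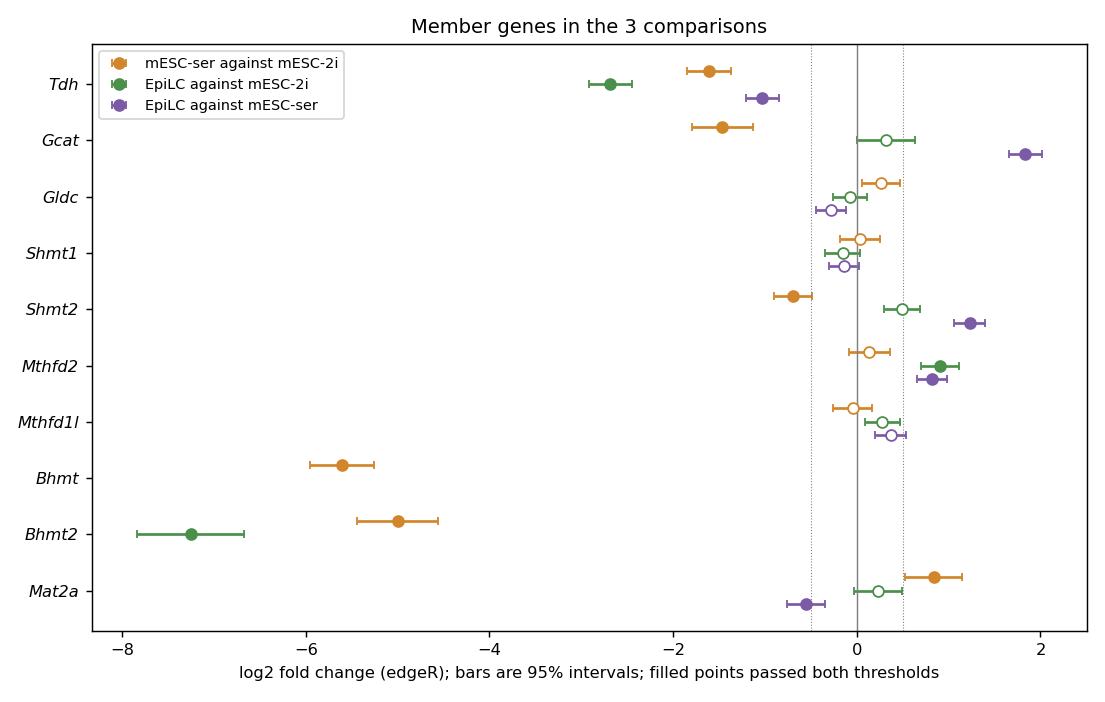
Log2 fold change of each enzyme in the 3 comparisons (x axis; edgeR) with 95% intervals; filled points passed both thresholds, open points did not, and dotted lines mark -0.5 and 0.5. Bhmt against EpiLC (at 0 in EpiLC) and Bhmt2 in EpiLC against mESC-ser (not tested) have no point, and Gcat and Shmt2 lie on opposite sides of 0 in mESC-ser against mESC-2i and EpiLC against mESC-ser.

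Tdh, which oxidizes threonine in the first step of its breakdown, was highest in mESC-2i and lowest in EpiLC. The gene (ENSMUSG00000021953) lies on chromosome 14, 63492347 to 63509092, minus strand, in GRCm38, the assembly also named mm10. Its levels in mESC-2i were 468, 512 and 428 CPM. They were 168, 163 and 150 CPM for mESC-ser and 76.1, 76.7 and 69.0 CPM in EpiLC. No library of one state overlapped another state, and the means were 469 ± 41.9, 160 ± 9.25 and 73.9 ± 4.30 CPM (SD, n = 3) in the same order. The log2 fold change was -1.61 (SE 0.11, edgeR adjusted p = 6.84e-07) in mESC-ser and -2.68 (SE 0.11, adjusted p = 8.48e-09) in EpiLC, both against mESC-2i, and -1.03 (SE 0.08, adjusted p = 6.38e-09) in EpiLC against mESC-ser. Of the 50-base stretches of its transcripts, 10.2% are also in Gm13929, a separate locus on chromosome 2, whose counts were 3.28% to 5.97% of those of Tdh. With the counts of both summed, every call of Tdh was the same. In these bulk libraries fewer cells that make a transcript and less transcript per cell cannot be told apart.

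Gcat, which makes glycine and acetyl-CoA from the product of Tdh, fell with Tdh in serum but not in EpiLC. The gene (ENSMUSG00000006378) lies on chromosome 15, 79030874 to 79038353, plus strand. Levels were 86.3, 113 and 73.0 CPM in mESC-2i, 33.2, 35.6 and 33.8 CPM for mESC-ser and 118, 121 and 106 CPM in EpiLC. The mESC-ser libraries were lower than all others, and mESC-2i and EpiLC overlapped through the second mESC-2i library. The log2 fold change was -1.47 (SE 0.15, edgeR adjusted p = 1.31e-05) in mESC-ser against mESC-2i and 1.84 (SE 0.09, adjusted p = 4.99e-12) in EpiLC against mESC-ser. In EpiLC against mESC-2i it was 0.32 (95% interval 0.0045 to 0.64, adjusted p = 0.0593), and it became a call, at 0.55, only without mESC-2i replicate 2 among the alternatives run. The annotation holds a second protein-coding entry of the same symbol that covers 1132 exonic bases (47.5%) of this one; it was not analysed here, and reads of the 2 entries cannot be told apart.

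The promoter of Gcat is shown because, of the 9 enzymes with an entry among the RefSeq promoters (250 bases before the start site and 50 from it on, GRCm38.p6), it alone held the E-box CACGTG, whose letters read the same on both strands. Of all 32851 promoter windows of this length, 7.15% held it. The other element searched, TGATGNAA on either strand, the core bound by ATF4 and C/EBP factors, was in 0 of the 9 and in 3.97% of all windows. Tdh had no entry. The window lies at chr15:79030624-79030923, plus strand, with the E-box in capitals, its first base being base 3 counted from the start site as base 1.
Gcat: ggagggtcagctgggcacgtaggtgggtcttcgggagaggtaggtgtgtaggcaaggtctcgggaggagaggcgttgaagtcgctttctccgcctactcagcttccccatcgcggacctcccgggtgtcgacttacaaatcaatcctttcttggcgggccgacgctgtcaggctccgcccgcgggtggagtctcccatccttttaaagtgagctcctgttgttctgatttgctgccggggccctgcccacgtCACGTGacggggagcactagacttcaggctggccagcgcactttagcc

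The balance of the pair was taken as the ratio of Tdh to Gcat in reads per kilobase of exon. It was 4.94, 4.12 and 5.35 in the mESC-2i libraries, 4.61, 4.16 and 4.04 in mESC-ser, while EpiLC had 0.590, 0.579 and 0.591. Both mESC states thus had more Tdh than Gcat reads per kilobase in every library, and EpiLC had less. The lengths used include the stretches that Tdh and Gcat each share with another gene, and their effect on the size of the ratio was not tested. The log2 ratio differed by -0.16 (SE 0.12) between mESC-ser and mESC-2i, whose libraries overlapped (exact permutation test, two-sided, p = 0.3, adjusted over the 6 ratio tests 0.3). In EpiLC it differed by -3.02 (SE 0.11) from mESC-2i and by -2.86 (SE 0.06) from mESC-ser, each with an exact permutation p of 0.1, the smallest that 3 against 3 libraries allow, and 0.12 after adjustment.

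**Figure D3:**
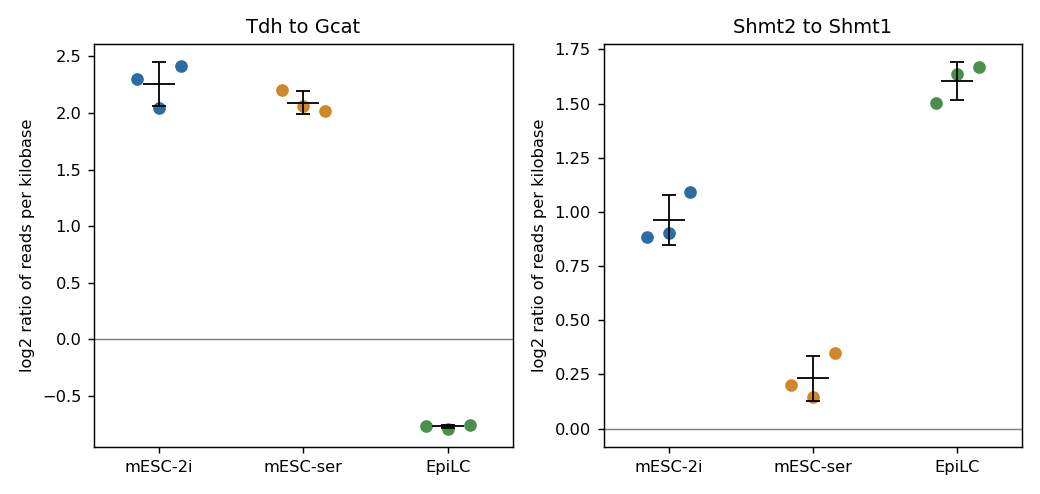
Log2 ratio of reads per kilobase of Tdh to Gcat (left) and of Shmt2 to Shmt1 (right) in each library (points) with the mean and SD (bars, n = 3); the line at 0 marks equal levels. The Tdh to Gcat ratio is below 0 in EpiLC alone (mean -0.77), and the Shmt2 to Shmt1 ratio is lowest in mESC-ser (mean 0.23) and highest in EpiLC (mean 1.60).

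Gldc, the decarboxylase of the glycine cleavage system, differed little between the states. The gene (ENSMUSG00000024827) lies on chromosome 19, 30098447 to 30175429, minus strand. Levels were 244, 248 and 236 CPM in mESC-2i, 291, 296 and 320 CPM for mESC-ser and 233, 240 and 230 CPM in EpiLC. The mESC-ser libraries were above all others, by less than the fold threshold: the log2 fold change was 0.26 (SE 0.09, edgeR adjusted p = 0.0301) against mESC-2i, and -0.28 (SE 0.08, adjusted p = 0.00256) in EpiLC against mESC-ser. The latter was past the threshold, at -0.62, under scaling by total counts. Over the 15 alternatives it reached up to -0.0089, and the highest adjusted p of these fits (edgeR or DESeq2) was 0.892. EpiLC and mESC-2i overlapped (-0.07, 95% interval -0.26 to 0.12, adjusted p = 0.454). The 3 other proteins of the complex are Amt, Gcsh and Dld. Amt, its aminomethyltransferase, was called lower in each comparison (-0.78 for serum against 2i, -3.09 for EpiLC against 2i and -2.26 for EpiLC against serum). Gcsh, the lipoyl carrier, was called higher in EpiLC against both mESC states (0.88 and 1.03) and was at -0.10 in mESC-ser. Dld, which also serves the pyruvate dehydrogenase complex, was called higher under serum than under 2i (0.59) and was not called in the EpiLC comparisons (0.29 and -0.26).

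The 2 serine hydroxymethyltransferases, which exchange serine and glycine while loading a carbon on folate, behaved differently. Shmt1, the cytosolic enzyme (ENSMUSG00000020534; chromosome 11, 60788104 to 60811718, minus strand), was at 165, 166 and 150 CPM in mESC-2i, 172, 177 and 163 CPM for mESC-ser and 147, 147 and 143 CPM in EpiLC. It was called in none of the 3 comparisons (log2 fold changes 0.03, -0.16 and -0.14, edgeR adjusted p = 0.767, 0.121 and 0.0918; the first has a 95% interval of -0.18 to 0.25). The EpiLC libraries were nonetheless below every mESC library. Shmt2, the mitochondrial enzyme (ENSMUSG00000025403; chromosome 10, 127517123 to 127522444, minus strand), was at 244, 248 and 256 CPM in mESC-2i, 158, 157 and 166 CPM for mESC-ser and 334, 367 and 363 CPM in EpiLC. Its 3 groups did not overlap, with mESC-ser lowest and EpiLC highest. It changed by -0.69 (SE 0.09, edgeR adjusted p = 7.68e-05) in mESC-ser against mESC-2i and by 1.23 (SE 0.08, adjusted p = 2.42e-10) in EpiLC against mESC-ser. The first value was -0.48, short of the fold threshold, with the length and GC correction. In EpiLC against mESC-2i it was 0.49 (SE 0.09, adjusted p = 0.00044), just short of the fold threshold, and it was past it under 6 of 15 alternatives, at up to 0.56.

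In reads per kilobase, Shmt2 exceeded Shmt1 in all 9 libraries. The ratio was 1.85, 1.87 and 2.13 in mESC-2i, 1.15, 1.11 and 1.27 in mESC-ser, while EpiLC had 2.84, 3.11 and 3.18, with no overlap between states. The log2 ratio of mESC-ser differed by -0.73 (SE 0.09) from that of mESC-2i, and the ratio of EpiLC by 0.64 (SE 0.08) from mESC-2i and by 1.37 (SE 0.08) from mESC-ser, each at the smallest exact permutation p of 0.1 (adjusted 0.12). With the length and GC correction the EpiLC differences were 0.29 and 0.96. The open reading frames of the pair are 64.9% identical and share no identical run longer than 19 bases, fewer than a read holds.

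Mthfd2 and Mthfd1l, which carry the folate-bound carbon inside the mitochondrion towards formate, were both higher in every EpiLC library than in any mESC library, with Mthfd2 called and Mthfd1l not. Mthfd2, the methylenetetrahydrofolate dehydrogenase (ENSMUSG00000005667; chromosome 6, 83305691 to 83325908, minus strand), was at 85.7, 92.9 and 78.0 CPM in mESC-2i, 97.9, 93.6 and 102 CPM for mESC-ser and 162, 163 and 162 CPM in EpiLC. The mESC-ser libraries were all slightly above those of mESC-2i. It rose in EpiLC by 0.90 (SE 0.09, edgeR adjusted p = 5.78e-06) against mESC-2i and by 0.82 (SE 0.08, adjusted p = 3.26e-08) against mESC-ser, the latter falling to 0.48, below the fold threshold, under scaling by total counts. Between the mESC states the log2 fold change was 0.13 (95% interval -0.088 to 0.36, adjusted p = 0.257). Mthfd1l, the synthetase that releases formate (ENSMUSG00000040675; chromosome 10, 3973118 to 4167081, plus strand), was at 99.6, 94.8 and 92.1 CPM in mESC-2i, 94.9, 92.0 and 102 CPM for mESC-ser and 117, 120 and 115 CPM in EpiLC. The log2 fold changes in EpiLC of 0.28 (SE 0.09, adjusted p = 0.0112) and 0.37 (SE 0.08, adjusted p = 0.000358) stayed below the fold threshold. The former reached 0.52 with the length and GC correction and was -0.059 under scaling by total counts. Between the mESC states it was -0.04 (95% interval -0.26 to 0.17, adjusted p = 0.701). Neither gene shares a 50-base stretch with another gene.

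Bhmt and Bhmt2, methyltransferases that return homocysteine to methionine with betaine and with S-methylmethionine as the donor, had the largest log2 fold changes of the 10 genes in both comparisons with mESC-2i. Bhmt (ENSMUSG00000074768; chromosome 13, 93616675 to 93637961, minus strand) held 417, 631 and 599 counts in mESC-2i, 15, 14 and 17 counts in mESC-ser and 0 counts in each EpiLC library. Bhmt2 (ENSMUSG00000042118; chromosome 13, 93655720 to 93674302, minus strand) held 234, 380 and 476 counts in mESC-2i, 12, 11 and 23 in mESC-ser, but only 2, 1 and 2 in EpiLC. For both genes every mESC-2i library was far above every other, and every mESC-ser library was above every EpiLC library. In CPM, Bhmt averaged 50.2 ± 3.09 (SD, n = 3) under 2i against 1.07 ± 0.108 under serum, where its log2 fold change was -5.61 (SE 0.16, edgeR adjusted p = 7.2e-09). From the summed counts it was 47.2-fold lower in mESC-ser, with an exact 95% interval of 35.3 to 64.8 for counting error only. Against a floor of 3 counts per library, Bhmt in EpiLC was at least 125-fold lower than in mESC-2i and at least 2.66-fold lower than in mESC-ser (edgeR adjusted p = 1.17e-08 and 1.59e-05).

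Bhmt2 averaged 32.5 ± 4.25 CPM under 2i against 1.03 ± 0.255 CPM under serum, where its log2 fold change was -4.998 (SE 0.20, edgeR adjusted p = 3.22e-08), a 31.3-fold difference (counting interval 23.3 to 43.0). In EpiLC it was 163-fold below mESC-2i (counting interval 69.6 to 503; log2 fold change -7.25, SE 0.26, adjusted p = 5.15e-09). The 5 EpiLC and 46 mESC-ser counts of Bhmt2 were too few for the filter, and their ratio was 5.21 (counting interval 2.08 to 16.8). With no filter on low counts Bhmt2 was called lower in EpiLC than in mESC-ser (-2.31, SE 0.58, edgeR adjusted p = 0.000158). DESeq2 gave -2.26 (SE 0.89, adjusted p = 0.0177). The open reading frames of Bhmt and Bhmt2 are 74.9% identical, with 1 identical run of 59 bases, longer than a read. Of the 50-base stretches of Bhmt, 24.1% are also in Gm5096 and 13.5% in Bhmt-ps1, both copies of the gene elsewhere in the genome, whose counts in mESC-2i were 47.6% to 50.6% and 16.1% to 19.7% of those of Bhmt. In all, 26.1% of the stretches of Bhmt are also in another gene. Reads that lie within the stretches shared with the copies cannot be assigned. With the 3 summed every call of Bhmt was the same.

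Bhmt and Bhmt2 lie in tandem, with 17759 bases from the start site of Bhmt to the end of Bhmt2, and the start site of Bhmt2 is 131 bases from that of Dmgdh, transcribed the other way. Dmgdh (ENSMUSG00000042102; chromosome 13, 93674433 to 93752833, plus strand) encodes dimethylglycine dehydrogenase, which oxidizes the dimethylglycine that Bhmt makes. It held 812, 1326 and 1406 counts in mESC-2i, 35, 35 and 53 in mESC-ser, but only 3, 4 and 1 in EpiLC, so its groups did not overlap and had the same order as those of Bhmt and Bhmt2. Its log2 fold change was -5.29 (SE 0.13, edgeR adjusted p = 7.2e-09) in mESC-ser and -8.32 (SE 0.20, adjusted p = 5.19e-10) in EpiLC, both against mESC-2i, and -2.99 (SE 0.38, adjusted p = 1.29e-06) in EpiLC against mESC-ser. The flanking protein-coding genes had smaller log2 fold changes. Jmy, an actin nucleation factor, was higher in mESC-ser than in mESC-2i (0.95) and at -0.49, not called, in EpiLC against mESC-2i, and Arsb, a lysosomal sulfatase at 4.22 ± 0.566 CPM in mESC-2i, had log2 fold changes of -0.95 in mESC-ser and -2.60 in EpiLC. Between EpiLC and mESC-ser both were called lower (Jmy -1.40, Arsb -1.61; edgeR adjusted p = 1.41e-09 and 0.000423). Bhmt and Dmgdh are known as liver genes, and the 4 hepatocyte markers Alb, Ttr, Apoa1 and Serpina1a summed to at most 1.41 CPM in any library, with Serpina1a at 0 in all 3 groups.

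The start regions of Bhmt and Bhmt2 are shown because these genes had the same order of levels and differ in base composition; this feature was chosen after their values were seen. The Bhmt2 window, chr13:93674253-93674552 on the minus strand, also spans the start site of Dmgdh. It has 73.7% GC and 26 CpG dinucleotides, where the median of all 32851 promoter windows is 52.7% GC. The Bhmt window, chr13:93637709-93638008 on the minus strand, has 48.0% GC and 8 CpG dinucleotides, and its RefSeq start site lies 203 bases inside the start of the gene given above. Relative to the number expected from base composition, CpG stood at 0.664 in the Bhmt2 window and 0.463 in the Bhmt window. Both were above the median of all windows, 0.384. Capitals mark CpG dinucleotides.
Bhmt: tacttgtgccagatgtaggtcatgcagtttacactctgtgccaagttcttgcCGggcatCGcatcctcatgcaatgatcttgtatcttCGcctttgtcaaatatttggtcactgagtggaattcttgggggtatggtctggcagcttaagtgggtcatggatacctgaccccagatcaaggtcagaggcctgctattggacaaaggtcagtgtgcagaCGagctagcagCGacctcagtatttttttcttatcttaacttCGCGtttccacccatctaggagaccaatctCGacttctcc
Bhmt2: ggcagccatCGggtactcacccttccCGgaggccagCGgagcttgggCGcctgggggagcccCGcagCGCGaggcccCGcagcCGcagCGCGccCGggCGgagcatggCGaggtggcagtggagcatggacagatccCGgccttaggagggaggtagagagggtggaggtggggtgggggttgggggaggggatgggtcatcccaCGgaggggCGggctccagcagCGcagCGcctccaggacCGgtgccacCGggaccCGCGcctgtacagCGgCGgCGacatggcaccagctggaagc

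**Figure D4:**
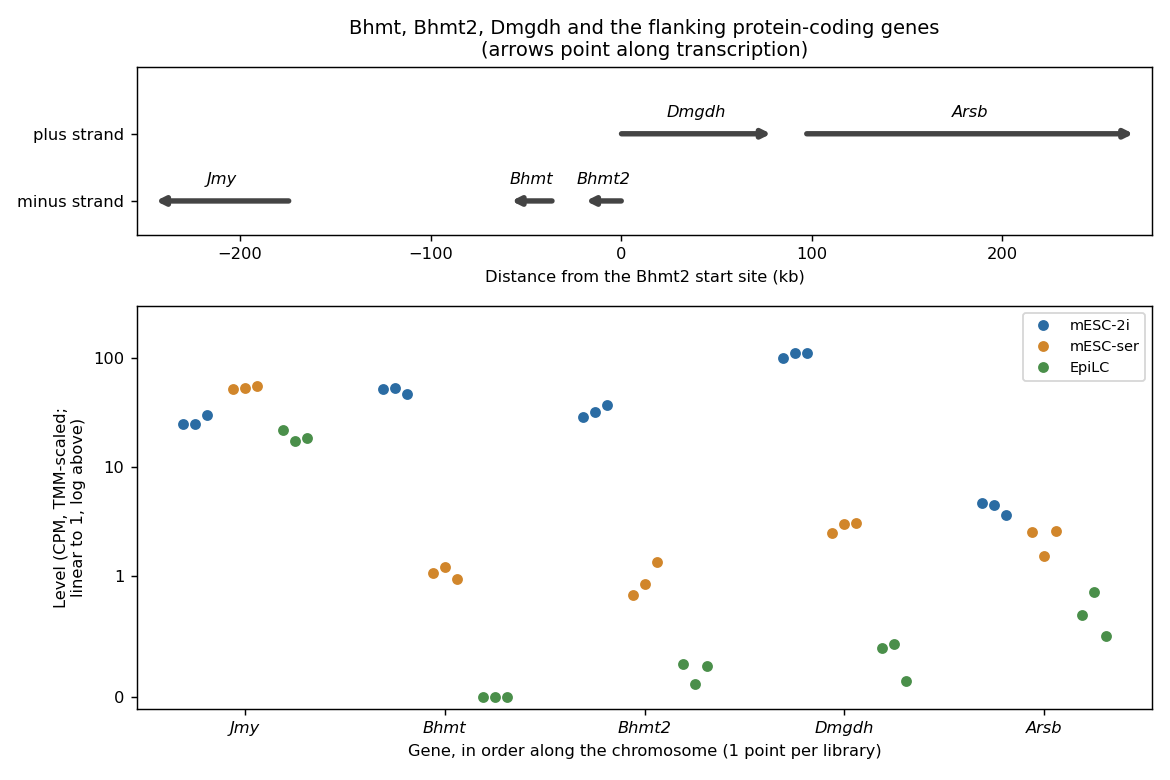
Top, position and direction of Bhmt, Bhmt2, Dmgdh and the flanking protein-coding genes against the distance from the Bhmt2 start site in kb; bottom, their level in each library (CPM scaled by TMM, linear to 1 and logarithmic above). Bhmt, Bhmt2 and Dmgdh drop together from mESC-2i (28.7 to 111 CPM over the 3 genes) to mESC-ser (0.840 to 3.04 CPM), and Jmy does not.

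Mat2a, the catalytic subunit that makes SAM from methionine, was the only one of the 10 genes called higher in mESC-ser than in mESC-2i. The gene (ENSMUSG00000053907) lies on chromosome 6, 72432799 to 72439558, minus strand. Levels were 271, 270 and 349 CPM in mESC-2i, 595, 591 and 466 CPM for mESC-ser and 381, 342 and 337 CPM in EpiLC. The mESC-ser libraries were above all others, and mESC-2i and EpiLC overlapped through the third mESC-2i library. The rise in serum was 0.84 (SE 0.14, edgeR adjusted p = 0.000415), and EpiLC stood at -0.56 (SE 0.10, adjusted p = 5.87e-05) against mESC-ser. The second call was lost with the length and GC correction (-0.17, adjusted p = 0.062) and, just short of the fold threshold, without mESC-ser replicate 1 (-0.50). In EpiLC against mESC-2i the log2 fold change was 0.23 (95% interval -0.028 to 0.49, adjusted p = 0.0908). Mat2a overlaps Particl on the other strand by 508 exonic bases (11.3%), and since the library kit does not mark strand, reads from these bases cannot be assigned. The partner subunit Mat2b was called in no comparison (-0.15, 0.19 and 0.39), and Mat1a, the enzyme of adult liver, had too few counts to be tested.

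Per exonic length, as CPM per kilobase of exon (RPKM), Tdh had the highest level of the 10 genes in mESC-2i (180 ± 16.0, SD, n = 3), followed by Shmt2 (80.2 ± 1.94) and Mat2a (66.1 ± 10.1). Shmt1, Gldc and Gcat came next at 41.2 ± 2.31, 39.8 ± 0.949 and 38.1 ± 8.61 RPKM, with overlapping libraries. In mESC-ser the order was led by Mat2a (123 ± 16.3 RPKM), Tdh (61.2 ± 3.54) and Shmt2 (51.6 ± 1.65), whose libraries overlapped those of Gldc (49.7 ± 2.50). In EpiLC it was led by Shmt2 (114 ± 5.76 RPKM), Mat2a (78.8 ± 5.39) and Gcat (48.2 ± 3.16), which overlapped Mthfd2 (46.5 ± 0.150). Tdh, at 28.3 ± 1.64 RPKM in EpiLC, had dropped to the level of Mthfd1l (26.5 ± 0.504), with overlapping libraries, and Gldc and Shmt1 overlapped there too. Bhmt2 and Bhmt were the lowest in every state. The lengths include stretches shared with other genes, as for Gcat, Tdh and Bhmt, and their effect on this order was not tested.

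Beside the 10 enzymes, 60 other genes of the pathway in 10 lists were followed, all of them in the count table. In mESC-ser against mESC-2i, 9 were called higher and 17 lower of 53 tested (49.1%, against 56.2% of all tested genes; median log2 fold change -0.15). In EpiLC against mESC-2i, 20 were higher and 14 lower of 52 (65.4%, against 69.8%; median 0.22). In EpiLC against mESC-ser, 24 were higher and 9 lower of 51 (64.7%, against 73.3%; median 0.45). In these main fits the share called was thus near that of all tested genes or somewhat below it, and the difference was not tested. With total counts in place of TMM, which moved the median of all genes to -0.45 and -0.41 in the EpiLC comparisons, the splits there became 12 higher and 17 lower, and 14 higher and 17 lower. The length and GC correction moved them the other way, to 25 higher and 13 lower, and 28 higher and 6 lower, and gave 6 higher and 17 lower for serum against 2i. Under total counts the split of the 10 enzymes in EpiLC against mESC-ser became 2 higher and 4 lower, in place of 3 and 3, and with the length and GC correction it was 3 higher and 2 lower. In EpiLC against mESC-2i the enzymes were split 2 higher and 3 lower under RLE scaling and with the length and GC correction, in place of 1 and 3.

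Serine synthesis, which supplies the substrate of Shmt1 and Shmt2, has 3 enzymes. All 3 were called lower in mESC-ser than in mESC-2i (Phgdh -0.60, Psat1 -0.81 and Psph -0.79), where 30.3% of all tested genes were called lower. All 3 were called higher in EpiLC than in mESC-ser (1.76, 1.27 and 1.56), where 35.5% of all genes were. Against mESC-2i, where 32.0% of all genes were called higher, Phgdh (1.12) and Psph (0.71) were called while Psat1 (0.41) was not. The log2 fold changes of Shmt2 had the same sign as those of these 3 genes in each comparison. Both enzymes of transsulfuration, which draws homocysteine away to cysteine, were lower in mESC-ser (Cbs -2.50, Cth -0.87) and in EpiLC (Cbs -2.55, Cth -2.09) than in mESC-2i. Of all tested genes, 30.3% and 37.8% were called lower in these comparisons. Between EpiLC and mESC-ser, Cth was lower (-1.16) and Cbs was at -0.01.

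In the folate cycle, 2 genes were called higher and 3 lower of 13 tested between mESC-ser and mESC-2i (38.5% called, against 56.2% of all tested genes). In EpiLC, 4 were higher and 3 lower against mESC-2i, and 6 were higher and 1 lower against mESC-ser (53.8% called in each, against 69.8% and 73.3%). Tyms, the thymidylate synthase, had the largest called rise of the 60 genes with at least 100 counts in EpiLC against mESC-2i (2.18, SE 0.11, edgeR adjusted p = 3.47e-08). Among folate transporters, 2 of 4 tested genes were higher in mESC-ser and none lower (50.0% called, against 56.2% of all tested genes). Folr1, a folate receptor, had the largest such rise there (2.51, SE 0.11, adjusted p = 5.98e-08). In EpiLC, 3 of 4 transporters were higher against mESC-2i and 1 was higher and 1 lower against mESC-ser. These calls, 3 of 4 and 2 of 4, stand beside 69.8% and 73.3% of all tested genes, so the first was near the background and the second below it.

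In the methionine and SAM cycle, 1 gene was called higher and 1 lower of 9 tested in mESC-ser (22.2% called, against 56.2% of all). In EpiLC, 3 were higher and 4 lower against mESC-2i, and 3 were higher and 3 lower of 8 against mESC-ser (7 of 9 and 6 of 8 called, close to the 69.8% and 73.3% of all genes). Mtr and Mtrr, which remethylate homocysteine with folate and so run beside Bhmt, are named here for that role, outside the naming rule. Mtr was called higher in mESC-ser than in mESC-2i (0.87) and lower in EpiLC than in either mESC state (-1.14 and -1.96), and Mtrr was at 0.06 in mESC-ser and was called lower in EpiLC (-0.76 and -0.77). Of the 5 genes listed under choline and betaine oxidation, 3 could be tested: Dmgdh, Aldh7a1 and Pemt, the last not an oxidizing enzyme. In mESC-ser Dmgdh and Pemt (-0.94) were called lower, and Aldh7a1 (-0.38) was not called. In both EpiLC comparisons Aldh7a1 (0.59 and 1.02) and Pemt (0.72 and 1.72) were higher and Dmgdh lower. The shares called were 66.7%, 100.0% and 100.0% of these 3 genes, beside 56.2%, 69.8% and 73.3% of all tested genes.

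Transporters of threonine, serine, glycine and methionine, 9 in all, were called higher in 2 and lower in 1 in mESC-ser, higher in 4 and lower in none in EpiLC against mESC-2i, and higher in 6 and lower in none against mESC-ser. The shares called were 33.3%, 44.4% and 66.7%, against 56.2%, 69.8% and 73.3% of all tested genes. Slc6a9, a glycine transporter, had the largest called rise of the 60 genes in EpiLC against mESC-ser among those with at least 100 counts (2.35, SE 0.18, edgeR adjusted p = 2.22e-09), and Amt the largest fall. Of the other enzymes of threonine and serine breakdown, 2 could be tested in mESC-ser against mESC-2i: Tha1, the threonine aldolase, and Srr. Both were called lower (-1.99, SE 0.42, and -1.34, SE 0.24), where 30.3% of all tested genes were. Tha1 was near the floor, with 7, 12 and 23 counts in mESC-2i and 6, 3 and 5 in mESC-ser. Of the 5 genes that use glycine for creatine, haem or glutathione, 1 was higher and 2 lower in mESC-ser and in EpiLC, both against mESC-2i. In EpiLC against mESC-ser, 2 were higher and 1 lower. The share of these 5 genes called was 60.0% in each comparison, beside 56.2%, 69.8% and 73.3% of all tested genes.

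**Figure D5:**
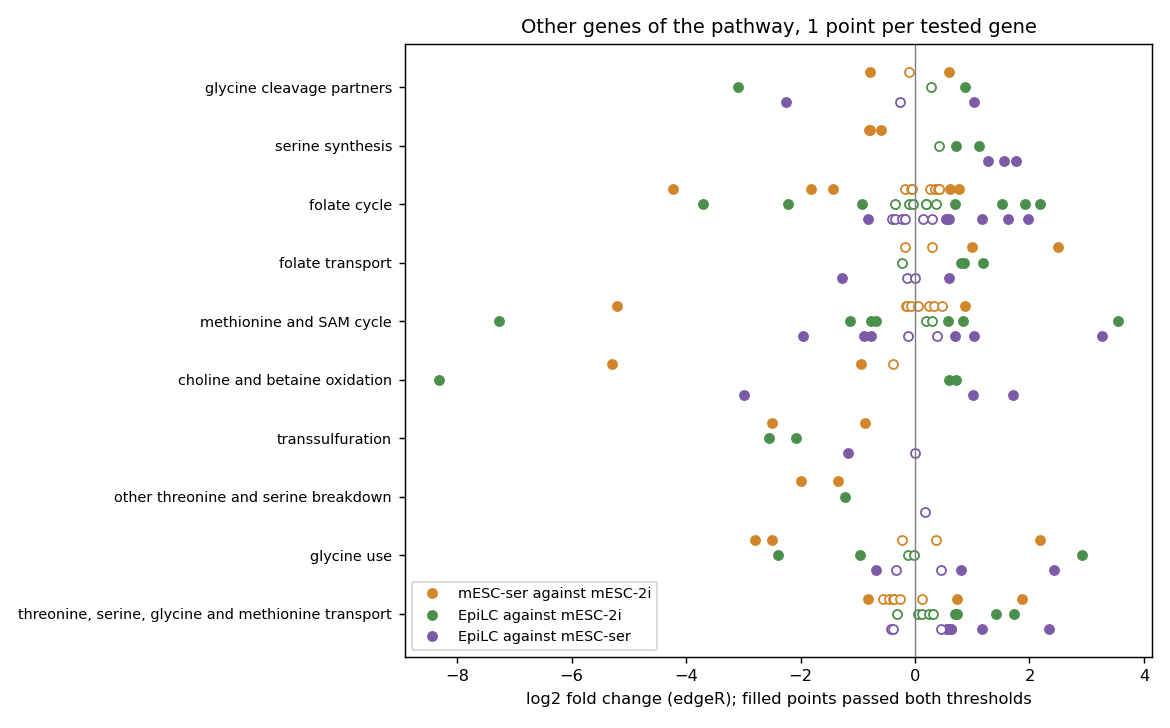
Log2 fold change (x axis; edgeR) of the tested genes of the 10 pathway lists (rows) in the 3 comparisons; filled points passed both thresholds. The 3 serine synthesis genes lie below 0 in mESC-ser against mESC-2i and above 0 in EpiLC against mESC-ser, and the lowest point, at -8.32, is Dmgdh.

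Over the 9 libraries, the genes whose log2 CPM was most like that of Tdh among 10369 genes were Pramef17 (Pearson r = 0.9975), a member of a multigene family, Nek6 (0.9974) and Fxyd6 (0.9973). For Bhmt they were Colgalt1 (r = 0.9995), Fam198b (0.9978) and Gas6 (0.9978). Dmgdh was at rank 18 for Bhmt (0.9961), Tdh at rank 26 (0.9945) and Bhmt2 at rank 57 (0.9906). The libraries fall into 3 groups, which these values mainly describe.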

How the data were processed

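The authors deposited raw counts of reads for each Ensembl gene, as whole numbers without normalization. Per the study's methods and the submitters' processing notes, reads were trimmed with TrimGalore 0.6.6, aligned to mm10 with HISAT2 2.2.1 and counted with featureCounts of Subread 2.0.1. The annotation release, strand setting and handling of reads with several alignments are not given in the sources used here. Serum columns were matched to samples by the initials of serum and LIF. The 10 genes and all gene lists were chosen with earlier results of these data known. Symbols and positions came from GENCODE M21, which held 36429 of the identifiers (95.1%); the others held 0.596% to 0.827% of the counts. For each comparison the 6 libraries concerned were fitted with edgeR 4.0.16 in R 4.3.3 (filterByExpr, TMM, quasi-likelihood F-test), with p adjusted over all tested genes; the fold threshold is that of the study. SE values come from the F statistic and 95% intervals use the t distribution with its degrees of freedom. CPM values are scaled by TMM over 9 libraries, with a prior count of 2 for log2 CPM. Reads carry no molecular identifiers, so the floor of 3 counts per library and all counting intervals cover counting error only.

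All 10 genes were named in every comparison. Of the lists, the called gene with the largest rise and the largest fall was named, given a mean of at least 100 counts in one group and no overlap, and for Tdh and Bhmt the 3 genes most alike. Further genes of small lists, and Jmy, Arsb, Mtr and Mtrr, were added after their values were seen. Alternatives were DESeq2 1.42.0, scaling by RLE or by total counts, a minimum of 10 counts in each library or no filter, all 9 libraries in one fit, a replicate block, natural splines with 5 degrees of freedom of length and GC as offsets, 2 other fold thresholds and leaving out each library. Summing Bhmt and Tdh with their copies was added after the data were seen. On simulated data for mESC-ser against mESC-2i with 200 changed genes of 15102 tested, 100% were recovered with 1.48% false among 203 calls. With a simulated length trend (15067 tested) the uncorrected fit gave 93.7% false calls among 3068, and the corrected fit 5.21% among 211. The changed genes were well counted, changed by more than the fold threshold, and all genes had the same set spread. The trend put in was of a kind that the correction models. In the data 56.2% of genes were called in that comparison, so these shares do not measure the error of the calls made here. Chi-square values per degree of freedom between replicates were 1.61 to 28.3, so none agreed within sampling noise. Same-numbered libraries of mESC-ser and mESC-2i tended to deviate together (r = 0.137 to 0.353, others -0.285 to 0.145). Their numbers may pair them, but the main fits held no replicate term. What a number stands for is not in the labels. Histone modification data were not used here.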

Additional observations from a re-analysis of the deposited data

How the results depend on the processing

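No call of an enzyme changed direction under any alternative run, and 53 of 54 counts of called enzymes and 48 of 51 pathway counts stayed within 1.5 times. The exceptions were a minimum of 10 counts in every library, which left 8 enzymes to test in EpiLC against mESC-2i and 2 calls (Bhmt and Bhmt2 were not tested), and a log2 fold threshold of 1, with 13, 19 and 19 pathway genes called in the 3 comparisons. With length and GC offsets the log2 ratio of Shmt2 to Shmt1 moved to 0.29 (EpiLC against mESC-2i) and 0.96 (against mESC-ser) and that of Tdh to Gcat to -2.82 and -2.73; the cause was not tested.

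Of enzymes not called, 13 values in 7 comparisons took the other sign. In mESC-ser against mESC-2i, Shmt1 was at -0.011 under total counts and ranged from -0.0091 to 0.078 when 1 library was left out (lowest without mESC-2i replicate 3). Mthfd1l was at 0.012 with the minimum of 10 counts and 0.15 with the offsets, alone or with the replicate block, and ranged from -0.076 to 0.026 when 1 library was left out (highest without mESC-ser replicate 2). In EpiLC against mESC-2i, total counts gave Gcat -0.017, Mthfd1l -0.059 and Mat2a -0.10, and the offsets gave Gldc 0.24 and Shmt1 0.024 (0.24 and 0.025 with the block).

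Between EpiLC and mESC-2i, same-numbered libraries correlated at 0.0153 to 0.109 and the others at -0.113 to 0.00905. Between EpiLC and mESC-ser, the ranges overlapped (0.0146 to 0.0383 and -0.0357 to 0.0202). These values are small and do not settle whether the numbers pair the libraries. The replicate block gave 6, 4 and 6 called enzymes in the 3 comparisons, as without it, and changed no call of an enzyme. Depth limits Bhmt and Bhmt2 in EpiLC, where 0 and 5 counts over 3 libraries set only a bound and a wide interval.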
